A study of Saccharomyces cerevisiae with 5 samples.

Results

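The 10 yeast genes described here encode the isozymes of 4 enzymes at the lower end of alcoholic fermentation. They were chosen by gene symbol, as the isozymes of these enzymes, and all 10 were found among the 5886 genes listed for each strain. Messenger RNA had been sequenced from cultures of the budding yeast Saccharomyces cerevisiae in the BY4741 background (haploid, mating type a, derived from S288C), growing exponentially at 30 °C in YPD (2% glucose, 2% peptone, 1% yeast extract). There were 3 libraries of a SUL1 knockout, harvested at an optical density of 0.6, and 2 of the wild type, for which no optical density is given. A further wild-type replicate named in the series' design was not analysed here. SUL1 encodes a high-affinity sulfate transporter, and the study asks how mutation of this gene lengthens yeast lifespan.

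Each library is a biological replicate by its title, but whether the knockout cultures came from 1 clone or several, and how the gene was removed, is not given in the sources used here. Both strains lack MET17, the enzyme that joins sulfide to a carbon skeleton, and MET17 was listed at 0 FPKM in all 5 libraries. SUL1 was likewise at 0 in each knockout library and had 8.28 and 9.78 FPKM in wild-type replicates 1 and 2, so the targeted transcript followed the labels in all 5 libraries. STE2, the receptor of mating type a cells, had 115 to 145 FPKM over the 5 libraries, against 8.38 to 11.8 FPKM for STE3, its counterpart in mating type alpha cells. Of the other mating type a genes, AGA2 had 95.3 to 131 FPKM, but BAR1 only 8.6 to 16.95. That of BAR1 is near the alpha genes SAG1, at 8.26 to 11.6 FPKM, and MF(ALPHA)2, at 4.97 to 8.44. MF(ALPHA)1 had 0 to 0.8 FPKM, and MFA1 and MFA2 gave no value. FPKM counts fragments per kilobase of a transcript, relative to all fragments of the library, and so is a level per length. The low values imply 24450000 to 24950000 fragments for a knockout library and 22300000 to 24700000 for a wild-type one. Knockout replicate 2 stood apart from the other knockout libraries, with a root-mean-square log2 difference of 0.37 from replicate 1 and 0.37 from replicate 3, whereas replicates 1 and 3 differed by 0.19 and the wild-type replicates by 0.25.

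Glycolysis splits glucose into pyruvate and gains ATP in its lower steps. Glyceraldehyde-3-phosphate dehydrogenase (TDH1, TDH2, TDH3) oxidises the triose phosphate, enolase (ENO1, ENO2) forms phosphoenolpyruvate, and pyruvate kinase (CDC19, PYK2) turns that into pyruvate with the release of ATP. Pyruvate decarboxylase (PDC1, PDC5, PDC6) then makes acetaldehyde, which fermenting yeast reduces to ethanol. In each family at least one isozyme carries the flux in glucose-grown cells, here called major (TDH3, TDH2, ENO2, CDC19, PDC1). The others are best known from other conditions and are called minor. TDH1 is tied to slow growth and stress, ENO1 to growth on non-fermentable carbon as well as glucose, PYK2 to low glycolytic flux, PDC5 to loss of PDC1 or lack of thiamine, and PDC6 to scarcity of sulfur.

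PDC6 and ENO1 differ from their major isozymes in the number of sulfur-containing residues they encode, which is why their coding sequences are shown for a study of a sulfate transporter. In the R64 reference, the coding sequence of PDC6 held 5 methionine and 1 cysteine codons among 563, against 13 and 4 in PDC1 and 14 and 4 in PDC5. Of 5883 coding sequences, 2.35% had a lower share of these codons than PDC6, at 1.07%, where the median was 3.35%. ENO1 held 6 methionine codons and ENO2 held 10, with 1 cysteine codon each, and 6.22% of coding sequences had a lower share than ENO1. The other families differed less, with 9 such codons in TDH1, 10 in TDH2, 9 in TDH3, 16 in PYK2 and 18 in CDC19. Shown first are coding bases 118 to 207, the first 90-base stretch with the largest difference in such codons between PDC6 and PDC1, read in frame, with methionine (ATG) and cysteine (TGT or TGC) codons in capitals. PDC6 lies there at chrVII:652775-652864 and PDC1 at chrXII:233875-233964, both on the reverse strand of R64.
PDC6: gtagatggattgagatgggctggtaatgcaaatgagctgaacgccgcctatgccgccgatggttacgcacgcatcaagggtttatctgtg
PDC1: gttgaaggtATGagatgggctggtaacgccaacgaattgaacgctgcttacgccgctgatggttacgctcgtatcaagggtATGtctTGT
Coding bases 169 to 348 were picked in the same way, as the first 180-base stretch with the largest difference between ENO1 and ENO2. They lie at chrVII:1001095-1001274 in ENO1 and chrVIII:451495-451674 in ENO2, both on the forward strand. Marked as above, they hold 1 methionine codon in ENO1 and 3 in ENO2.
ENO1: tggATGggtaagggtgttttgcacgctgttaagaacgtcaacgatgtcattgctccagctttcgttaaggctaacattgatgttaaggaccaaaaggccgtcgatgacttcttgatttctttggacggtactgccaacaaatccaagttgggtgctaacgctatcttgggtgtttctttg
ENO2: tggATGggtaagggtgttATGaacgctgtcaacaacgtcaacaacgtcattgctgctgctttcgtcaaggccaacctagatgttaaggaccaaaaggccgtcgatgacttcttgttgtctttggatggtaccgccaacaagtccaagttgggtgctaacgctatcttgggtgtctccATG

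**Figure D1:**
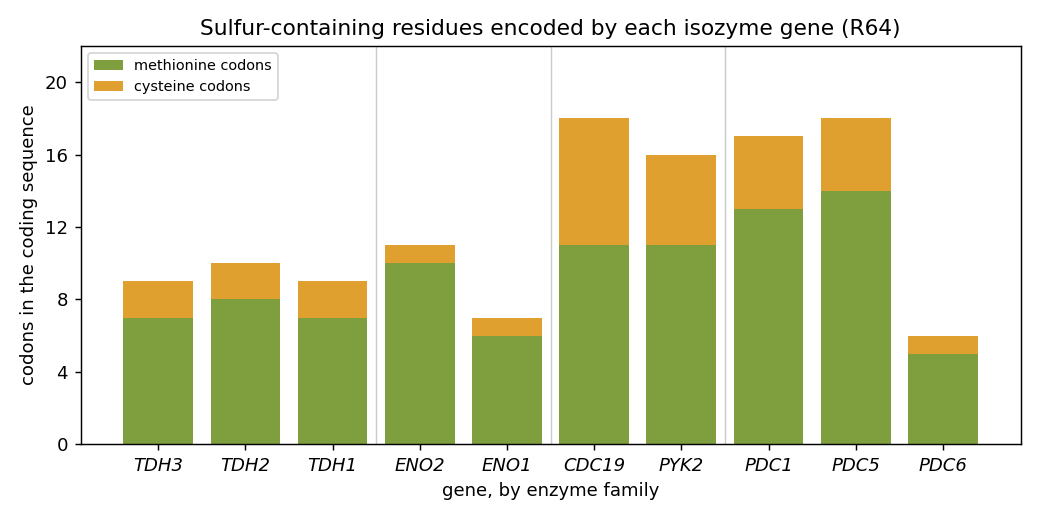
Bars give the number of methionine (green) and cysteine (orange) codons, stacked, in the R64 coding sequence of each of the 10 genes, grouped by enzyme family with the major isozyme at the left of each. PDC6, with 6, and ENO1, with 7, have the lowest totals.

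Similar copies limit how well fragments can be assigned to a gene, and this differed between the families. TDH2 and TDH3 were identical at 957 of 999 coding bases (95.8%), TDH1 and TDH2 at 901 (90.2%), TDH1 and TDH3 at 888 (88.9%), and ENO1 and ENO2 at 1246 of 1314 (94.8%). Of all 100-base windows, 12.8% in TDH2, 8.22% in TDH3, 4.56% in TDH1 and 2.72% in either enolase gene also occurred in another member of the family. No 100-base window was shared within the pyruvate kinases, which were 67.1% identical, or within the pyruvate decarboxylases. PDC6 was 75% identical to PDC1, with a longest shared run of 29 bases, and PDC5 was 87.2% identical to PDC1, with a run of 65. By shared windows alone, values of the TDH and ENO genes are less certain than those of the other families. The handling of fragments that match several genes is not given in the sources used here. Abundance matters too, as PDC5 made up 0.108% to 0.155% and PDC6 0.0243% to 0.0615% of their family's FPKM. A small share of misassigned PDC1 fragments would therefore weigh on both, and this was not tested. The longest run shared by TDH1 and TDH2, coding bases 613 to 741, is given below with TDH3 beside it, capitals marking the 2 positions at which the 3 genes are not all alike. It lies at chrX:338883-339011 (forward strand) in TDH1, at chrX:453941-454069 (reverse) in TDH2 and at chrVII:883070-883198 (reverse) in TDH3.
TDH1: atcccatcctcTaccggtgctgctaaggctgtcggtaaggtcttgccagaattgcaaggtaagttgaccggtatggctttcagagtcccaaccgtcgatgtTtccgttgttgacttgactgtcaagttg
TDH2: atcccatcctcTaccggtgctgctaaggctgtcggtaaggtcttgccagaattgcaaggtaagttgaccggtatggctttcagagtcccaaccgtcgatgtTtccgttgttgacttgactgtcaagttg
TDH3: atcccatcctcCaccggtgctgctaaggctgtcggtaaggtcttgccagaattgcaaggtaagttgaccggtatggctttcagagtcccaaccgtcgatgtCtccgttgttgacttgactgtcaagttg

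The isozymes ran from nearly the most abundant messenger in the cell to nearly the least. By mean FPKM over the 5 libraries TDH3 ranked 2 among all 5886 genes, ENO2 22, CDC19 30, TDH2 69, PDC1 73, ENO1 169 and TDH1 174. PYK2 ranked 3484, PDC5 5181 and PDC6 5615. In this order the ranges of neighbouring genes overlapped for TDH2 and PDC1 in both strains and for ENO1 and TDH1 in the knockout, and were apart for the other neighbours. The 10 genes together made up 3.57%, 3.10% and 3.73% of the FPKM sum in knockout replicates 1, 2 and 3, and 3.78% and 4.10% in wild-type replicates 1 and 2. The knockout libraries all lay below the wild type on this share, knockout replicate 2 furthest, but the FPKM summed over all genes was higher in each knockout library, at 1837934 to 1947861, than in the wild type, at 1732634 to 1808700.0. The FPKM summed over the 10 genes, as deposited, overlapped, at 67047, 60461 and 68586 in the knockout and 68336 and 71026 in the wild type.

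**Figure D2:**
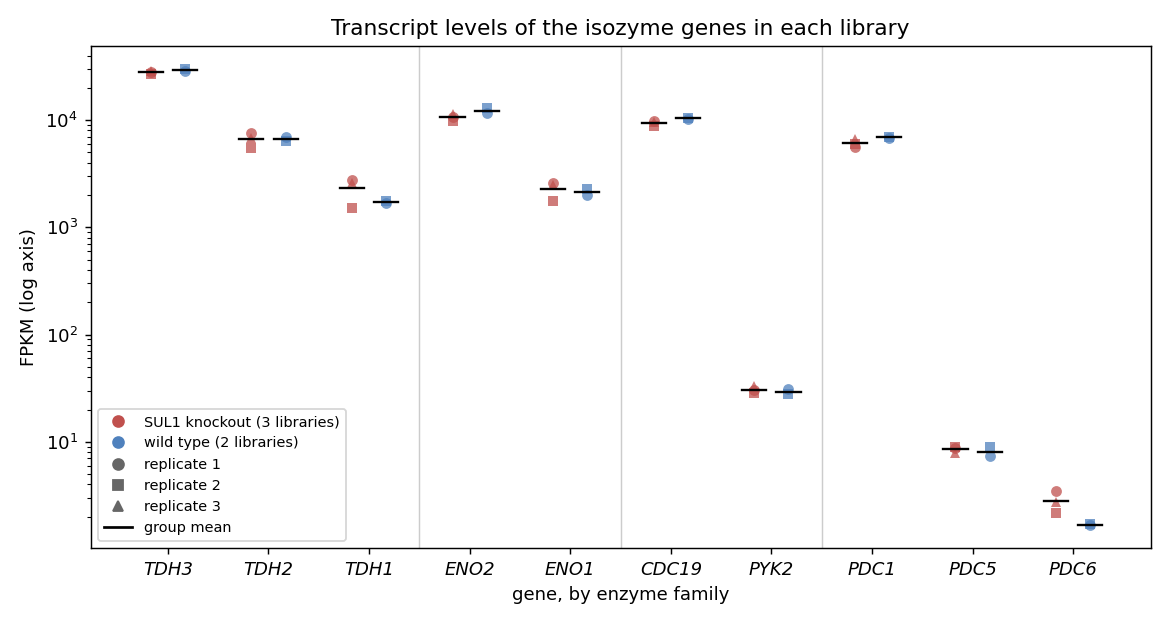
FPKM on a log axis for each of the 10 genes in the 3 SUL1 knockout libraries (red) and the 2 wild-type libraries (blue), with the marker shape giving the replicate number and a bar the group mean. The 5 major isozymes lie at 5468 FPKM or more, PYK2 between 27.9 and 33, PDC5 between 7.34 and 8.93 and PDC6 between 1.66 and 3.46, and the groups lie close together beside these gaps.

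None of the 10 genes changed between the strains by the test used, although 4 of them had knockout and wild-type libraries that did not overlap. The test was limma on log2(FPKM + 1) over all 5712 genes averaging 1 FPKM or more, at an adjusted p under 0.05 (Benjamini-Hochberg), and all 10 genes passed that filter. It called 0.263% of all genes (0.193% higher and 0.07% lower) and 0 of the 10, of which 0 also had an unadjusted p under 0.05, against 18.6% of all genes (6.92% higher and 11.6% lower). Groups did not overlap for ENO2, CDC19 and PDC1, lower in the knockout, and for PDC6, higher. That is 4 of 10, close to the 41.1% of all genes tested (13.1% higher and 28% lower). With libraries set to the same median only PDC6 of the 10 did not overlap, and with equal FPKM sums TDH3, lower, joined the 4. The share of all genes without overlap was not computed under either scaling, so these counts have no background beside them. Fold changes were positive for 5 and negative for 5, with a median log2 value of 0.015, against -0.069 for all genes tested. The samples are bulk cultures, so a lower level in every cell and fewer cells that express a gene cannot be told apart.

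**Figure D3:**
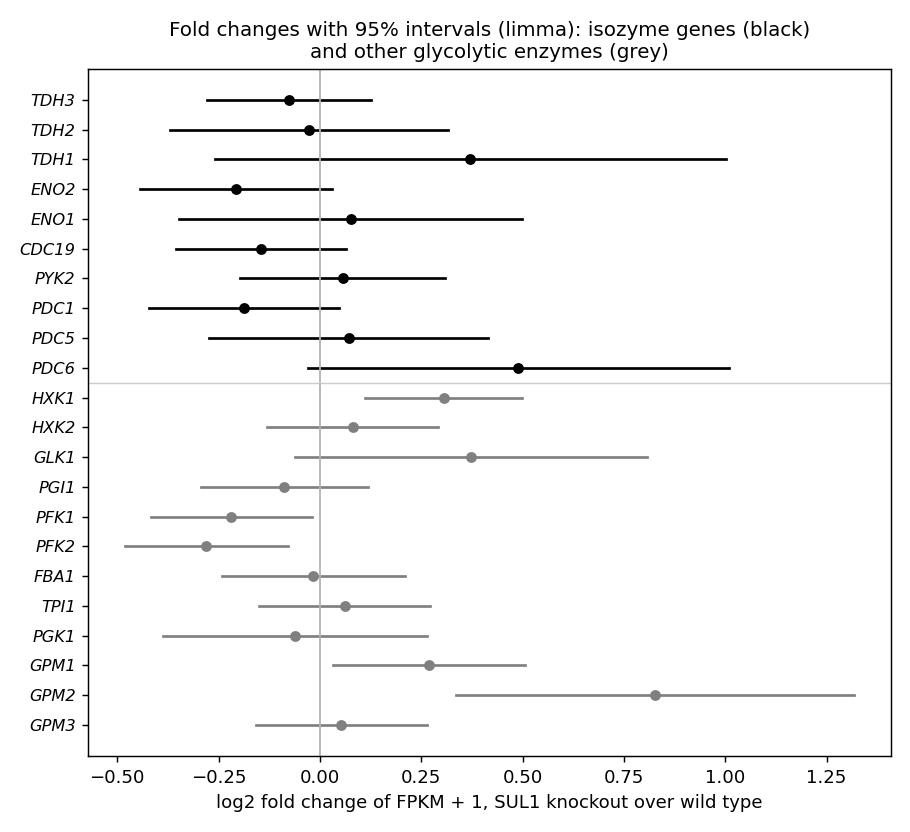
Points give log2 fold changes of FPKM + 1, SUL1 knockout over wild type, and lines their 95% intervals (limma, 3 against 2 libraries), for the 10 isozyme genes in black and 12 other glycolytic enzymes in grey. The intervals of all 10 isozyme genes reach across 0, and those of TDH1 and PDC6 are the widest among them, up to 1.00 and 1.01.

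TDH3 (YGR192C, chromosome VII, 882812 to 883810, reverse strand), the main glyceraldehyde-3-phosphate dehydrogenase, had 27905, 27119.5 and 29007 FPKM in knockout replicates 1, 2 and 3 and 28973 and 30112 FPKM in wild-type replicates 1 and 2. The groups overlapped by a narrow margin, with a log2 fold change of -0.077 ± 0.09 (SE, adjusted p = 0.627 by limma) and a 95% interval of -0.28 to 0.13. TDH2 (YJR009C, chromosome X, 453683 to 454681, reverse strand), the second most abundant form, had 7652, 5468 and 6880 FPKM in the knockout and 7018 and 6448 FPKM in the wild type. Here knockout replicate 2 was the lowest of all 5 libraries and knockout replicate 1 the highest, and the log2 fold change was -0.027 ± 0.15 (SE, adjusted p = 0.933 by limma, 95% interval -0.37 to 0.32). Its sign turned to 0.029 with equal medians, 0.11 without knockout replicate 2 and 0.034 when wild-type replicate 1 was left out.

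TDH1 (YJL052W, chromosome X, 338271 to 339269, forward strand), the form tied to slow growth, varied most among the abundant members. It had 2783, 1527 and 2603 FPKM in knockout replicates 1, 2 and 3, a mean of 2305 ± 680 (SD, n = 3), and 1680 and 1767 FPKM in the wild type, a mean of 1723 ± 61.7 (SD, n = 2). Knockout replicates 1 and 3 lay well above both wild-type libraries and knockout replicate 2 below them. On the log2 scale the knockout was 0.37 ± 0.26 (SE) higher, which was not called (adjusted p = 0.456 by limma, 95% interval -0.26 to 1.00). Without knockout replicate 2 TDH1 was called higher, at 0.64 ± 0.09 (SE, adjusted p = 0.00530 by limma), in a fit that called 5.22% of all genes higher and 10.5% lower (15.7% in all). Over the 14 alternatives tried its adjusted p ranged from 0.00530 to 0.846. No other member was called without that library.

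Among 5039 other genes averaging 10 FPKM or more, the profiles over the 5 libraries closest to that of TDH1 were those of UBC8, HXT3 and RHO5. Likeness was the root-mean-square difference of log2(FPKM + 1) profiles, each centred on its own mean, and came to 0.058, 0.068 and 0.083, where the TDH1 profile itself deviated from its mean by 0.35. UBC8, a ubiquitin-conjugating enzyme of the breakdown of a gluconeogenic enzyme, had 92.8, 54.6 and 88.5 FPKM in knockout replicates 1, 2 and 3 and 60.6 and 57.6 FPKM in the wild type. HXT3, a low-affinity glucose transporter, had 423, 222 and 438 FPKM in the knockout and 259 and 275 FPKM in the wild type. RHO5, a small GTPase, had 171, 100.4 and 161 FPKM in the knockout and 104.5 and 126 FPKM in the wild type. In all 3, as in TDH1, knockout replicate 2 was the lowest library and the other knockout libraries the highest, which follows from how they were chosen.

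ENO2 (YHR174W, chromosome VIII, 451327 to 452640, forward strand), the enolase of glucose-grown cells, had 10727, 9784 and 11280 FPKM in knockout replicates 1, 2 and 3 and 11613 and 12852 FPKM in wild-type replicates 1 and 2. All knockout libraries lay below both wild-type libraries, with group means of 10597 ± 756 (SD, n = 3) and 12233 ± 876 (SD, n = 2), and the log2 fold change was -0.21 ± 0.10 (SE, adjusted p = 0.309 by limma, 95% interval -0.44 to 0.03). ENO1 (YGR254W, chromosome VII, 1000927 to 1002240, forward strand), its near-identical partner with fewer methionine codons, had 2590, 1758 and 2488 FPKM in the knockout and 1991 and 2281 FPKM in the wild type. Its groups overlapped, with knockout replicate 2 again the lowest of all, at a log2 fold change of 0.076 ± 0.18 (SE, adjusted p = 0.834 by limma, 95% interval -0.35 to 0.50) that turned to -0.017 with equal FPKM sums. Leaving out knockout replicate 2 gave 0.25, leaving out knockout replicate 1 gave -0.027 and leaving out wild-type replicate 1 gave -0.022.

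CDC19 (YAL038W, chromosome I, 71786 to 73288, forward strand), the main pyruvate kinase and a control point of glycolysis, had 9731, 8799 and 9629 FPKM in the knockout and 10208 and 10537 FPKM in the wild type. Every knockout library was below every wild-type library, with a log2 fold change of -0.15 ± 0.09 (SE, adjusted p = 0.4 by limma, 95% interval -0.36 to 0.07). PYK2 (YOR347C, chromosome XV, 984942 to 986462, reverse strand), the pyruvate kinase of low flux, had 30.4, 28.5 and 33 FPKM in the knockout and 30.8 and 27.9 FPKM in the wild type. These groups overlapped (0.056 ± 0.11 SE on the log2 scale, adjusted p = 0.786 by limma, 95% interval -0.20 to 0.31), and the sign turned with equal FPKM sums, to -0.033, and without wild-type replicate 2, to -0.012. At the estimated depths PYK2 rested on 961 to 1136 fragments in the knockout libraries and 860 to 1051 in the wild type, against 3 fragments for 0.0871 to 0.0974 FPKM.

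PDC1 (YLR044C, chromosome XII, 232390 to 234081, reverse strand), the main pyruvate decarboxylase, had 5615, 5966 and 6655 FPKM in knockout replicates 1, 2 and 3 and 6813 and 6991 FPKM in wild-type replicates 1 and 2. The knockout libraries were again all below the wild type, with means of 6079 ± 529 (SD, n = 3) and 6902 ± 125 (SD, n = 2) and a log2 fold change of -0.19 ± 0.10 (SE, adjusted p = 0.340 by limma, 95% interval -0.42 to 0.05). PDC5 (YLR134W, chromosome XII, 410723 to 412414, forward strand), the form that replaces PDC1 when it is lost, had 8.73, 8.93 and 7.94 FPKM in the knockout and 7.34 and 8.85 FPKM in the wild type. Its groups overlapped, at a log2 fold change of 0.071 ± 0.15 (SE, adjusted p = 0.803 by limma, 95% interval -0.27 to 0.42) that was -0.012 with equal FPKM sums and -0.049 without wild-type replicate 1.

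PDC6 (YGR087C, chromosome VII, 651290 to 652981, reverse strand), the decarboxylase poor in sulfur-containing residues, was the rarest of the 10 and had the largest ratio between the groups. It had 3.46, 2.18 and 2.76 FPKM in knockout replicates 1, 2 and 3, a mean of 2.80 ± 0.64 (SD, n = 3), and 1.66 and 1.7 FPKM in the wild type, a mean of 1.68 ± 0.028 (SD, n = 2). All knockout libraries were above both wild-type libraries, and the ratio of the means was 1.67. At the estimated depths these values stand for 133, 83 and 107 fragments in the knockout and 64 and 59 in the wild type. Exact 95% Poisson intervals, which cover counting error only, ran from 2.90 to 4.11, from 1.74 to 2.71 and from 2.26 to 3.34 FPKM in knockout replicates 1, 2 and 3, and from 1.29 to 2.13 and from 1.3 to 2.2 FPKM in the wild type, so that the interval of knockout replicate 2 overlaps both wild-type intervals. The log2 fold change on the FPKM + 1 scale was 0.49 ± 0.22 (SE, adjusted p = 0.288 by limma, 95% interval -0.03 to 1.01), 0.68 with a pseudocount of 0.1 and 0.13 with one of 10.

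Within a library the ratio of minor to major isozymes does not depend on how libraries are scaled to each other. All 4 ratios had higher means in the knockout, but none passed a test that with 3 against 2 libraries cannot go below an exact p of 0.1. TDH1 was 7.83%, 4.69% and 7.25% of TDH2 plus TDH3 in knockout replicates 1, 2 and 3, and 4.67% and 4.83% in wild-type replicates 1 and 2, so that knockout replicate 2 lay within the wild-type range. The difference in mean log2 ratio was 0.44 (two-sided exact permutation test, p = 0.3, adjusted over the 4 ratios 0.3). ENO1 was 24.1%, 18.0% and 22.1% of ENO2 in the knockout and 17.1% and 17.7% in the wild type, without overlap but with knockout replicate 2 close to the wild type (difference 0.28, exact permutation test, p = 0.2, adjusted 0.267).

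PYK2 was 0.312%, 0.323% and 0.342% of CDC19 in knockout replicates 1, 2 and 3, and 0.302% and 0.265% in the wild type. These did not overlap either, with a difference in mean log2 ratio of 0.20 (exact permutation test, p = 0.1, the smallest this design allows, adjusted 0.267). PDC5 plus PDC6 came to 0.217%, 0.186% and 0.161% of PDC1 in the knockout and 0.132% and 0.151% in the wild type, also without overlap (difference 0.40, exact permutation test, p = 0.2, adjusted 0.267). Taken alone, PDC6 was 0.0616%, 0.0365% and 0.0415% of PDC1 in the knockout and 0.0244% and 0.0243% in the wild type. Its difference of 0.90 was the largest of 9 ratios computed (exact permutation test, p = 0.1, adjusted over the 9 ratios 0.36), and that of PDC5 to PDC1, 0.27, came with overlapping groups. The groups thus did not overlap in 3 of the 4 ratios, where 41.1% of single genes did not overlap either and no share over other ratios was computed. With knockout replicate 2 or wild-type replicate 2 left out it was all 4, though with fewer libraries groups overlap less by construction. The ratios come from the same 5 libraries and are not independent of each other.

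**Figure D4:**
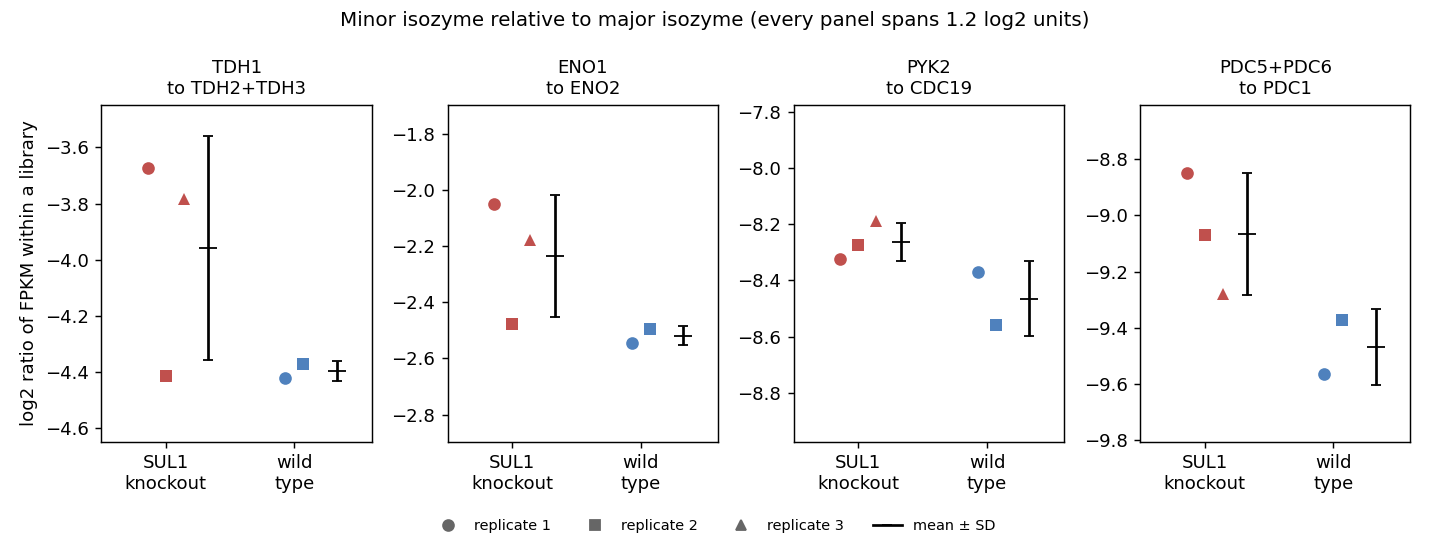
Each panel shows the log2 ratio of minor to major isozyme FPKM in the 3 SUL1 knockout libraries (red, left) and the 2 wild-type libraries (blue, right), with the marker shape giving the replicate number and the bar the mean ± SD. Knockout libraries lie above wild-type libraries in every panel but that of TDH1, where knockout replicate 2, at -4.42, lies between the wild-type libraries.

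The spread within the knockout group was itself shared by most members. Of the 10 genes, 8 were lowest among the knockout libraries in replicate 2, against 31.7% of all genes tested and 10 of the 12 other glycolytic enzymes, and the exceptions were PDC1, lowest in replicate 1, and PDC5, lowest in replicate 3. The share of all genes that were lowest in replicates 1 and 3 was 23.7% and 44.7%. TDH1 made up 7.26%, 4.48% and 6.76% of the summed FPKM of its family in knockout replicates 1, 2 and 3, and 4.46% and 4.61% in the wild type. ENO1 made up 19.4%, 15.2% and 18.1% of enolase FPKM in knockout replicates 1, 2 and 3, and 14.6% and 15.1% in the wild type. The share of knockout replicate 2 was thus the lowest of the knockout libraries for TDH1 and ENO1. It was also the lowest for PDC6, at 0.0615%, 0.0365% and 0.0414% of its family in knockout replicates 1, 2 and 3. The share of PYK2 was lowest in replicate 1 (0.311%, 0.322% and 0.341%) and that of PDC5 in replicate 3 (0.155%, 0.149% and 0.119%).

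**Figure D5:**
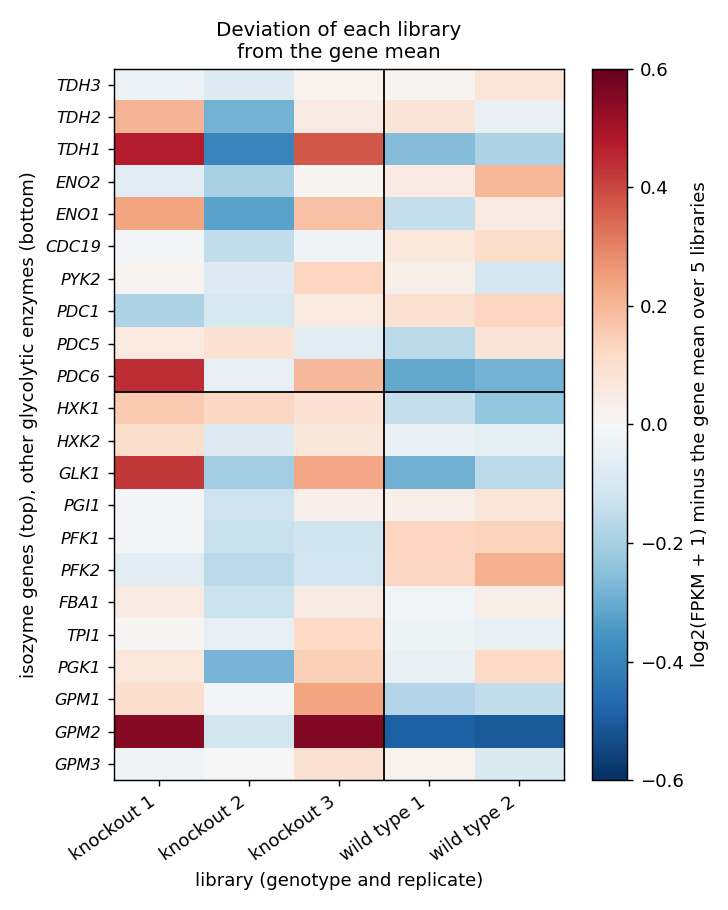
Colours give the log2(FPKM + 1) of each library minus the gene's mean over the 5 libraries, for the 10 isozyme genes (above the line) and 12 other glycolytic enzymes (below), with the 3 knockout libraries at the left of the vertical line and the 2 wild-type libraries at its right. Among others, TDH1, ENO1, GLK1, PDC6 and GPM2 are red in knockout replicates 1 and 3 and blue in knockout replicate 2. Of these, all but ENO1 are also blue in both wild-type libraries, as are HXK1, HXK2, TPI1 and GPM1.

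The 12 other glycolytic enzymes likewise held no call, with 0 higher and 0 lower of 12 (limma, with 5 at an unadjusted p under 0.05, or 3 higher and 2 lower, where 18.6% of all genes were), and a median log2 fold change of 0.057, which was -0.035 with equal FPKM sums. GPM2, a homologue of phosphoglycerate mutase that has no known activity in the pathway, had 192, 122 and 193 FPKM in knockout replicates 1, 2 and 3 and 93.2 and 92.2 FPKM in the wild type (0.83 ± 0.21 SE on the log2 scale, adjusted p = 0.173 by limma). GLK1, the glucokinase, had 554, 356 and 484 FPKM in the knockout and 337 and 368 FPKM in the wild type, at 0.37 ± 0.18 (SE, adjusted p = 0.317 by limma). HXK1, a glucose-repressed hexokinase, had 554, 541 and 528 FPKM in the knockout and 452 and 424 FPKM in the wild type, at 0.31 ± 0.08 (SE, adjusted p = 0.179 by limma). HXK1 and GPM2 had every knockout library above the wild type, whereas GLK1 had knockout replicate 2 between the wild-type values. The subunits of phosphofructokinase, an early control point of the pathway, were lower in every knockout library. PFK1 had 181, 166 and 168 FPKM in the knockout and 199 and 199.9 FPKM in the wild type, at -0.22 ± 0.08 (SE, adjusted p = 0.242 by limma). PFK2 had 115, 107 and 111 FPKM in the knockout and 131 and 139.6 FPKM in the wild type, at -0.28 ± 0.09 (SE, adjusted p = 0.196 by limma). In all, 3 of the 12 did not overlap and were higher, and 3 did not overlap and were lower. Of all genes tested, 13.1% did not overlap and were higher and 28% were lower (41.1% in all). Without knockout replicate 2, GPM2, GLK1, HXK1 and the main mutase GPM1 were called higher, by 1.05, 0.55, 0.31 and 0.33 on the log2 scale (limma, adjusted p = 0.000858, 0.0139, 0.0475 and 0.0396), against 5.22% of all genes.

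Regulators of these genes gave 0 calls among 8 (limma, 0 at an unadjusted p under 0.05), with a median log2 fold change of -0.10. PDC2, an activator of the pyruvate decarboxylase genes, had 21.0, 21.0 and 21.2 FPKM in the knockout and 23 and 26.8 FPKM in the wild type (-0.23 ± 0.11 SE on the log2 scale, adjusted p = 0.303 by limma). RAP1 and REB1, general factors bound at glycolytic promoters, differed by -0.24 and -0.18 on the log2 scale (limma, adjusted p = 0.491 and 0.745). RAP1 had 20.2, 28.2 and 17.3 FPKM in knockout replicates 1, 2 and 3 and 25.8 and 25.4 FPKM in the wild type. REB1 had 19.3, 34.5 and 17.1 FPKM in the knockout and 26.4 and 24.9 FPKM in the wild type, so that both were higher in knockout replicate 2 than in any other library. Both were called lower without it, at -0.43 and -0.47 (limma, adjusted p = 0.0377 and 0.0280), where 10.5% of all genes were.

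Thiamine genes, which share with PDC5 a dependence on thiamine supply, had 0 calls among 12 tested of 13 (limma, 1 at an unadjusted p under 0.05), with THI5 below the filter and a median log2 fold change of 0.11, which was -0.048 over those averaging 10 FPKM or more. The largest values were 0.42 for PET18, 0.35 for THI11 and 0.34 for THI12 (limma, adjusted p = 0.221, 0.288 and 0.401), the last pair from a family of near-identical copies whose values are uncertain. Genes known for their answer to sulfur limitation, as PDC6 is, had 0 calls among 8 (limma, 0 at an unadjusted p under 0.05) and a median of -0.034, which leaving out 1 library moved between -0.20 and 0.075. Of these, MMP1, a permease of S-methylmethionine, had 6.75, 6.85 and 5.98 FPKM in the knockout and 7.26 and 8.16 FPKM in the wild type. YCT1, a cysteine transporter, had 14.6, 15.5 and 12.2 FPKM in the knockout and 16.5 and 16.2 FPKM in the wild type, and MET14, the kinase of sulfate activation, differed by -0.17 (limma, adjusted p = 0.485, with 0.452 for MMP1 and 0.415 for YCT1). MMP1 and YCT1 were the 2 of the 8 whose groups did not overlap, both lower, against 28% of all genes tested. Fold changes were positive for 3 of the 8, at 0.092 for MET16, 0.068 for JLP1 and 0.0069 for MET3, and negative for 5.

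ERR1, an enolase-related reading frame near a chromosome end, had 5.27, 3.77 and 4.02 FPKM in knockout replicates 1, 2 and 3 and 2.64 and 2.20 FPKM in the wild type. The groups did not overlap, and the log2 fold change of 0.64 ± 0.20 (SE) was not called with all 5 libraries (adjusted p = 0.201 by limma) but was without knockout replicate 2 (limma, adjusted p = 0.0432). ERR1 belongs to a group of near-identical copies, so its level is uncertain. ERR3, below the filter, had 0 to 0.20 FPKM, and no value was found under the symbol ERR2.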

How the data were processed

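The authors deposited FPKM per gene and library, per the file headers in 1 table per strain. Build R64 and, without a role, RSEM 1.3.1, HISAT2 2.1.0, DESeq2 1.4.5 and Bowtie2 are named per the submitters' processing notes. Read length, strand setting and the annotation used were not given in the sources used here. All 5 columns were joined by gene identifier, and 5883 of 5886 identifiers matched the R64 reference, which holds coding sequences without untranslated regions.

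The smallest steps in FPKM gave each library's depth (genes of 400 to 1200 bp, up to 1.5 FPKM), with 140 bp taken off the coding length. Both settings were picked by a scan as those putting most values within 0.15 of a whole fragment. With them 87.5% to 94.5% of the 48 to 56 values per library lay there. An arbitrary depth, not picked in this way, gives 30%, so these shares describe a fit and are no test. The depth entered no test.

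The test was limma 3.58.1 (R 4.3.3) with genotype as the only term and a trended, robust prior. It was fitted to log2(FPKM + 1) of genes averaging 1 FPKM or more, 174 genes being under that filter. It understates fold changes of low genes. It was also run on simulated data with independent noise in each library, with no outcome given here. Such data hold no library that stands apart as a whole, as knockout replicate 2 does, so that case was not tested. Isozyme ratios were compared by exact permutation over the 10 arrangements of libraries (scipy 1.17.1). Alternatives were pseudocounts, filters, scalings, removal of a length trend, a flat prior, a replicate block and each library left out. Figures used matplotlib 3.10.9. Genes named are the 10 members, SUL1, the 3 with the largest fold change in each list of related genes and any called ones. The 3 most like TDH1, the member above 10 FPKM with the largest fold change, are also named. GPM1, PFK1, PFK2, MET16, JLP1, MET3, MET17, THI5 and ERR3 were added after their values were seen. So were the mating-type genes. Members and lists were chosen with earlier results of these data known.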

Additional observations from a re-analysis of the deposited data

How the results depend on the processing

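Fold changes of TDH3, ENO2, CDC19, PDC1 and PDC6 kept their sign under every alternative that gave a value, uncalled in each. With equal FPKM sums log2 fold changes of ENO1, PYK2 and PDC5 were -0.017, -0.033 and -0.012, and with equal medians that of TDH2 was 0.029. PDC5, PDC6 and ERR1 gave no value at a mean of 10 FPKM. Leaving out 1 library gave -0.13 to 0.11 for TDH2, -0.027 to 0.25 for ENO1, -0.012 to 0.13 for PYK2, -0.049 to 0.19 for PDC5 and 0.21 to 0.64 for TDH1; the sign turned in TDH2 without knockout replicate 2 (0.11) or wild-type replicate 1 (0.034), in ENO1 without knockout replicate 1 (-0.027) or wild-type replicate 1 (-0.022), in PYK2 without wild-type replicate 2 (-0.012) and in PDC5 without wild-type replicate 1 (-0.049). Members called ranged from 0 to 1, the 1 being TDH1 without knockout replicate 2. The cause was not tested. Over all genes, 11 higher and 4 lower calls became 4 and 4 with equal FPKM sums, 7 and 4 with equal medians or a flat prior, 4 and 2 with the length trend removed, 8 and 2 among genes averaging 10 FPKM or more, and from 0 to 298 higher and 0 to 598 lower without 1 library. They were 298 and 598 without knockout replicate 2, 5 and 4 without knockout replicate 1, 0 and 1 without knockout replicate 3, and 0 and 0 without either wild-type replicate (limma, with 623, 747 and 318 genes at an unadjusted p under 0.05 without knockout replicate 3, wild-type replicate 1 and wild-type replicate 2), where a lone wild-type library is taken to vary as much as the knockout libraries. The count of members without overlap was 4 to 6 without 1 library and 1 with equal medians, both chosen after seeing the data. No share over all genes was computed for these settings, and with fewer libraries groups overlap less by construction.

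The median of other glycolytic enzymes was -0.035 with equal FPKM sums. Regulators had -0.19 with equal FPKM sums, -0.043 with equal medians and -0.042 with the length trend removed, thiamine genes -0.048 among those averaging 10 FPKM or more, and ERR1 0.21 with a pseudocount of 10. With no filter, ERR1 and ERR3 had a median of 0.27. Without 1 library the sulfur-limitation median ran from -0.20 to 0.075, and calls from 0 to 4 among other glycolytic enzymes, 0 to 2 among regulators and 0 to 1 among enolase-related frames.

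Differences in mean log2 isozyme ratio stayed positive in all alternatives, from 0.30 to 0.67 for TDH1, 0.19 to 0.40 for ENO1, 0.11 to 0.30 for PYK2 and 0.29 to 0.51 for PDC5 plus PDC6 without 1 library. With the replicate number as a block, which leaves 2 pairs, they were 0.35, 0.26, 0.17 and 0.51, no member was called, and 0 genes were higher and 0 lower in all (limma, 399 genes at an unadjusted p under 0.05). Deviations of same-numbered libraries correlated at -0.37 and -0.43 over 5712 genes, and these values are not independent of each other. Whether same-numbered libraries were handled together was not tested and cannot be told from 2 pairs. Counting error is largest for PDC6, at 59 to 133 fragments.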
